A study of Mus musculus with 8 samples.

Results

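Activated mouse hepatic stellate cells given the microRNA miR-15a were compared with activated cells given a control microRNA, across all genes. The comparison uses 4 of the 8 libraries of the series, chosen by their labels: 2 of activated cells with miR-15a and 2 of activated cells with a control microRNA, each pair lettered a and b. Of the other libraries, 2 are of activated cells whose labels name no microRNA, called untreated here, and 2 of quiescent cells. Those 4 share in the estimate of the spread and serve as reference levels. C57BL/6J and SCID are both named as strains, with no strain tied to a library. Age, the control sequence, and the dose, duration and delivery of the microRNAs are not given in the sources used here. Neither is it stated that libraries a and b are different animals or cultures. The spread behind every p-value is therefore that between libraries, and it may be technical only.

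Hepatic stellate cells lie between hepatocytes and the sinusoidal endothelium and store vitamin A. On activation they lose these stores and become contractile myofibroblasts that lay down collagen, the main source of scar matrix in liver fibrosis. A microRNA guides an Argonaute protein to mRNAs whose 3′ UTR pairs with its seed, the bases next to its 5′ end, and lowers their stability or translation. miR-15a belongs to a family known for repressing cyclins and the survival factor Bcl2.

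The mature sequence of miR-15a-5p is shown because its seed defines the sites sought in the genes that fell. RefSeq places it at chr14:61632075-61632096 on the minus strand of GRCm38.p6. In each line the capitals mark bases 2 to 8.
miR-15a-5p: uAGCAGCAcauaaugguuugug
miR-15b-5p: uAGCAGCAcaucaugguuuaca
miR-16-5p: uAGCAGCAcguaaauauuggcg
Of 1679 mature mouse microRNAs in RefSeq, 10 carry these 7 bases, so a site for miR-15a is equally a seed match for miR-15b and miR-16. The site sought on the sense strand of the 3′ UTR was TGCTGCTA, which pairs with bases 2 to 8 and has an A opposite base 1. Weaker classes were the full match without that A (TGCTGCT), a match to bases 2 to 7 with the A (GCTGCTA) and a match to bases 2 to 7 alone (GCTGCT). These motifs overlap, and each gene was put in the first class of this order that its UTR held.

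Of the genes that held TGCTGCTA, fell and had both miR-15a libraries below both untreated ones, 5 of the 8 with the smallest adjusted p are shown by the site in their longest 3′ UTR, in GRCm38 coordinates. Each line gives the mRNA strand 5′ to 3′, with the site in capitals, and each site lies in the last exon.
Cast (chr13:74693903-74693924, minus): tgaaatttaaaatcTGCTGCTA
Adam12 (chr7:133883586-133883607, minus): ctcactggcctgtgTGCTGCTA
Pik3r1 (chr13:101681084-101681105, minus): ttggctgcccaggaTGCTGCTA
Thbs2 (chr17:14666620-14666641, minus): tcctttcctgtcccTGCTGCTA
Tnik (chr3:28674044-28674065, plus): cagctttggttgcaTGCTGCTA
Levels of these genes are given with the account of seed sites.

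The deposited values are normalized scores without a recorded depth. High values lie on steps shared by all libraries, up to a ceiling of 125636 that 13 genes reached in at least 1 of the 4 libraries. Replicate libraries correlated across genes at a Pearson r of 0.990 for miR-15a and 0.987 for the control, and libraries of different groups at 0.947 to 0.952. The myofibroblast marker Acta2, smooth muscle actin, was at 125636 and 58193 in both groups, against 43 and 51 in quiescent cells. Xist, expressed from the inactive X chromosome, was at 3373 in both miR-15a libraries, at 3373 and 5027 in the control libraries, at 169 and 21 in the untreated ones and at 8724 in both quiescent ones. The Y-linked Ddx3y was at 1046 and 1006 with miR-15a, at 1282 and 1268 in the control, at 2606 and 2570 in untreated cells and at 44 and 40 in quiescent cells. Its difference between the microRNA groups (log2 fold change -0.31 ± 0.07 SE, adjusted p = 0.0128) did not pass without miR-15a library b (adjusted p = 0.0660). In both transcripts the microRNA libraries lay between the untreated and the quiescent ones, and the part of this in the results was not tested.

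Many matrix and mitotic genes were lower with miR-15a, while most macrophage, endothelial, interferon and antigen presentation genes were higher. Of 13150 genes tested, 1897 (14.4%) rose and 2029 (15.4%) fell with miR-15a relative to the control microRNA, 29.9% in all. The increases were larger: 679 genes (5.16%) rose by more than 1 on the log2 scale and 219 (1.67%) fell by more than 1. The quartiles of all log2 fold changes were -0.32 and 0.20, with a median of -0.07. Without regard to the test, both miR-15a libraries lay above both control libraries in 27.7% of genes and below both in 38.2%. The call required an adjusted p under 0.05 from limma on log2(value + 5), a scale that understates the change of low genes, and errors of fold changes are standard errors. The total of 3926 calls was 2375 without miR-15a library b, 2381 without control library b and 2093 with the 4 compared libraries alone. With median-ratio scaling the split was 2311 higher and 1584 lower, so the share of higher genes among those called was 59.3% in place of 48.3%.

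The genes that rose by more than 1 were mostly ones with higher levels in quiescent than in untreated activated libraries. Of those 679 genes, 670 (98.7%) had both quiescent libraries above both untreated activated libraries, against 38.9% of all genes tested. In 196 of the 679 (28.9%) the mean of the control libraries was below 10, against 6.74% of all genes. Genes tested had to reach 10 in 2 libraries. Genes below 10 in every control and untreated library could do so only through miR-15a or quiescent libraries. For such genes the 98.7% is not independent of this filter. Of the 219 genes that fell by more than 1, 155 (70.8%) had both quiescent libraries below both untreated ones, against 51.1% of all genes.

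**Figure D1:**
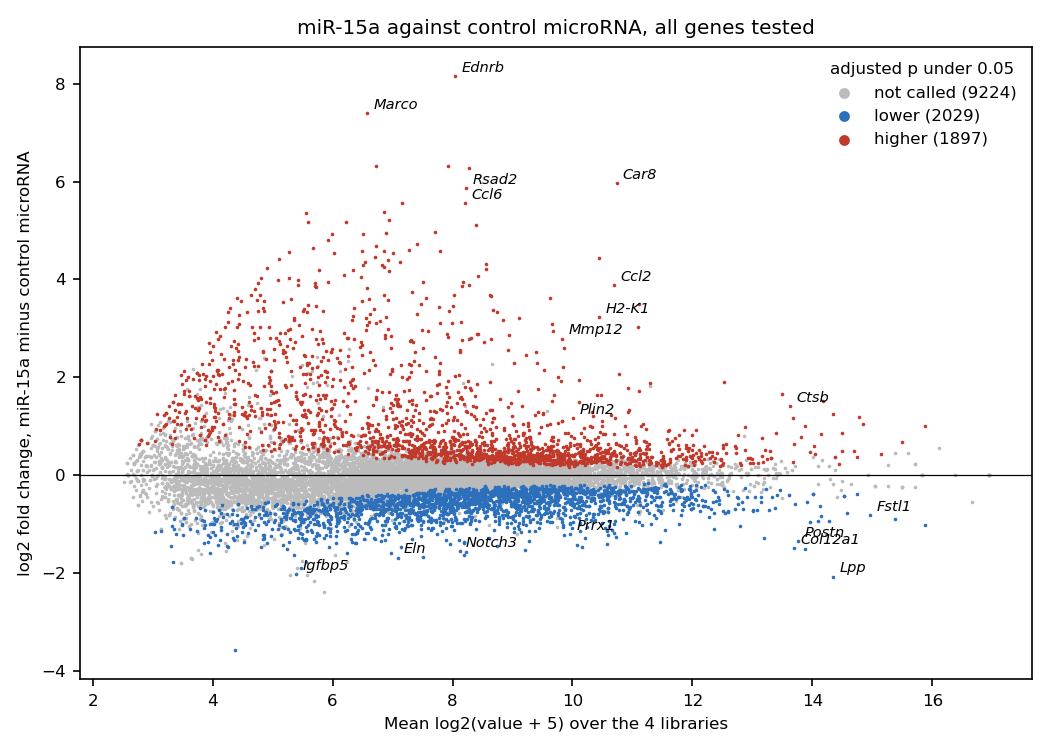
Log2 fold change of miR-15a over the control microRNA for each gene (y axis, log2(value + 5) scale) against the mean log2(value + 5) of the 4 libraries (x axis), with called genes in colour. The increases reach 8.16 for Ednrb, while the decrease of Lpp, at a high level, is -2.07 and the lowest point is the low-level gene Tmprss11f at -3.58.

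Genes of the collagen matrix were lower with miR-15a. Of 14 fibrillar collagens and associated proteins 10 fell and none rose, with a median of -0.76 against -0.07 over all genes. Col12a1, a collagen on the surface of fibrils, was at 8202 and 7720 with miR-15a and at 20500 and 24099 in the control (log2 fold change -1.48 ± 0.16, adjusted p = 6.45e-04). Its untreated libraries were at the same 20500 and 24099. Col5a3, a minor fibril-forming chain, was at 615 and 594 against 1308 and 1515 (-1.21 ± 0.09, adjusted p = 7.10e-05). Col14a1, another surface collagen, was at 1124 and 1420 against 2498 and 3263, and untreated cells were higher still at 6000 and 6462. In each of these 3 genes both miR-15a libraries lay below both libraries of either other activated group. Of all genes, 38.2% lay below both control libraries in this way and 43.1% below both untreated ones.

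The abundant collagens of scar showed less. Col1a2, a chain of type I collagen, stood at the ceiling of 125636 in all 6 activated libraries and could not differ there. Col3a1 was at 42350 and 58193 with miR-15a and at 58193 in both control libraries, and did not pass (adjusted p = 0.306). Col1a1 was at 18677 in both miR-15a libraries and at 24105 and 42360 in the control, with untreated cells at 18677 and 20504. Its decrease (-0.77 ± 0.22, adjusted p = 0.0363) did not pass without miR-15a library a or b (adjusted p = 0.126 and 0.130), nor with the 4 compared libraries alone (0.156), and against untreated cells the difference was -0.07 (adjusted p = 0.83).

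Basement membrane genes fell in 11 of 15 cases, none rose, and the median was -0.61. Col18a1, the precursor of endostatin, was at 663 and 712 with miR-15a and at 1744 and 2063 in the control, against 2422 and 2570 untreated (-1.46 ± 0.10, adjusted p = 7.71e-05). The laminin chain Lamb2 was at 2528 and 2866 against 4447 and 5029, and nidogen Nid2 at 512 and 402 against 816 and 896. The sheet-forming collagen gene Col4a1 (-0.22) and the perlecan gene Hspg2 (-0.31) were among the 4 that did not pass.

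Enzymes that modify and cross-link collagen fell in 11 of 18 cases, with a median of -0.36. That count was 3 without miR-15a library b, 6 without miR-15a library a, 5 and 6 without control library a or b, and 7 with median-ratio scaling. Plod2, a lysyl hydroxylase for cross-linking, was at 3602 in both miR-15a libraries and at 8202 and 7286 in the control, against 10504 and 11352 untreated (-1.10 ± 0.07, adjusted p = 4.75e-05). Adamts2, which removes the amino-terminal propeptide of procollagen, was at 2570 and 2385 against 5027 and 4899. The cross-linking oxidase Loxl2 was at 3514 and 3604 against 5124 and 5029. The gene of lysyl oxidase itself, Lox, did not pass (0.56).

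Elastic fibre, matricellular and proteoglycan genes fell as well. Eln, which encodes elastin, was at 53 and 94 with miR-15a, at 244 and 232 in the control and at 612 and 560 untreated (-1.68 ± 0.24, adjusted p = 0.00247). Elastic fibre genes fell in 7 of 12 cases, or in 4 without miR-15a library b. Postn, a matricellular protein of myofibroblasts, was at 8724 in both miR-15a libraries, at 24099 and 20500 in the control and at 42350 and 31224 untreated. For Eln and Postn the 3 activated groups stood apart in this order with no overlap. Over all genes, 38.2% were lower with miR-15a than in the control with no overlap, and 43.1% lower than untreated. Emilin1, the elastic fibre gene with the smallest p, was at 552 and 774 with miR-15a and 1540 and 2037 in the control. Its untreated libraries, at 704 and 792, overlapped those with miR-15a.

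Matricellular genes fell in 9 of 14 cases with a median of -0.49, Fstl1 among them, a secreted glycoprotein at 24105 in both miR-15a libraries and 42360 in both control libraries. Proteoglycan genes fell in 12 of 17 cases with a median of -0.60. Over the proteoglycan genes at 100 or more in quiescent cells, the median level with miR-15a was 196% of the quiescent mean. The median was 248% in the control and 201% untreated. Decorin (Dcn), which binds collagen fibrils, was at 2106 and 1856 against 3682 and 3263, with 2570 and 2605 untreated. Its control libraries were above the untreated ones (0.42, adjusted p = 0.0193) and its miR-15a libraries below them (-0.39, adjusted p = 0.00956). The glypican Gpc6 was at 422 and 337 against 712 and 848, with 1170 and 1296 untreated. Cspg4, the NG2 proteoglycan of activated stellate cells and pericytes, was at 4547 in both miR-15a libraries and 6825 in both control libraries, against 8 and 10 in quiescent cells (-0.59 ± 0.07, adjusted p = 0.00126).

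Matrix proteases moved in both directions. The metalloproteinases that rose were Mmp3, Mmp8, Mmp10, Mmp12 and Mmp13, with Adamts9, and those that fell were Mmp2, Mmp14, Mmp19, Adamts5, Adamts10 and Adamts12, so 6 of 21 list members rose and 6 fell. Mmp12, known as macrophage elastase, was at 2276 and 2500 with miR-15a, 332 and 348 in the control and 434 and 410 untreated (2.79 ± 0.07, adjusted p = 1.53e-06). Adamts12, which cleaves cartilage matrix proteins, was at 876 and 795 against 1664 and 1810. Mmp2 (-0.90) and its membrane-bound activator Mmp14 (-0.63) fell together. Timp1, a metalloproteinase inhibitor, was at 4266 and 6825 against 6464 and 6290 and did not pass (adjusted p = 0.685).

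**Figure D2:**
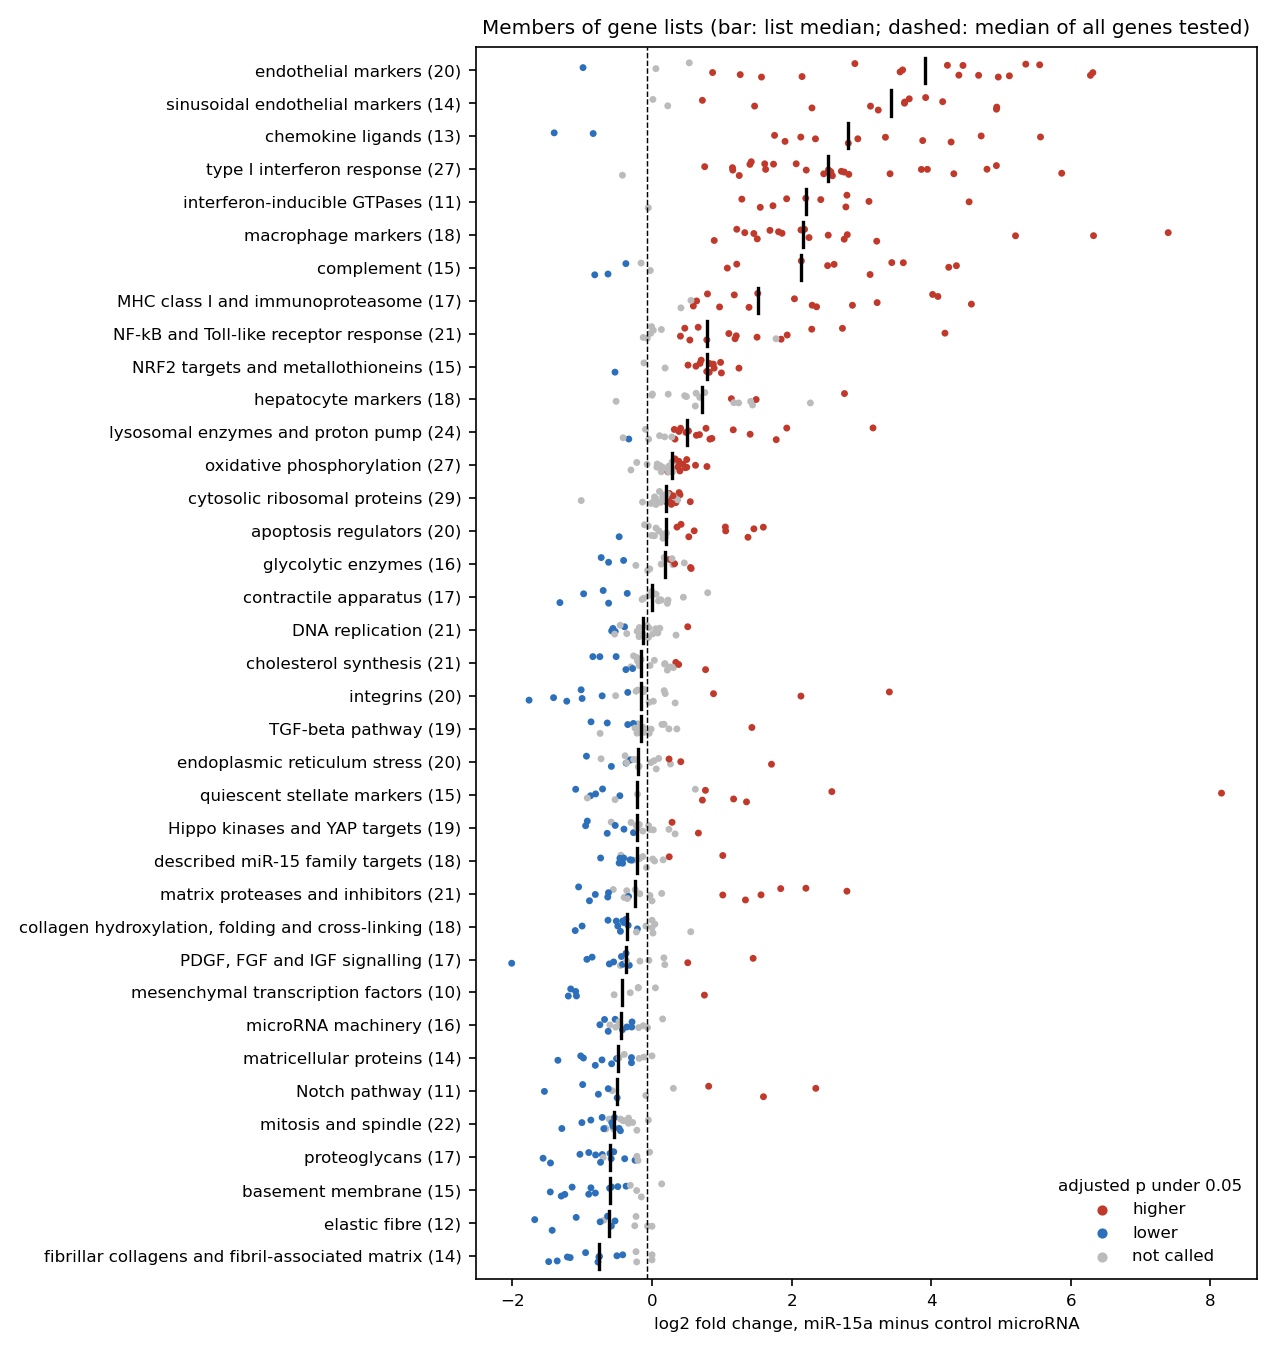
Log2 fold change of every tested member of each gene list (x axis, one row per list), with called members in colour and the list median as a bar. Fibrillar matrix members lie at or below 0, while type I interferon members lie above it apart from Isg20.

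Of 17 genes of the contractile apparatus 5 fell and none rose, with a median of 0. Myh11, the smooth muscle myosin heavy chain, was at 160 and 181 with miR-15a, 429 and 436 in the control and 1030 and 1076 untreated (-1.32 ± 0.10, adjusted p = 1.01e-04). Cald1, which encodes caldesmon, was at 8204 and 7290 against 12566 in both control libraries. Tagln (0.12) and Cnn1 (0.06), which encode other smooth muscle proteins, did not pass. Lpp, a LIM domain protein of focal adhesions, gave the largest decrease of those genes that passed, averaged 50 or more and had no overlap, from 31224 and 58193 to 10504 and 9821 (-2.07 ± 0.27, adjusted p = 0.00145). The 5 contractile decreases were 3 with the 4 compared libraries alone, and 3 members rose without control library a, and 1 without miR-15a library b, without control library b or with median-ratio scaling.

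Integrin genes also moved in both directions, where all genes rose in 14.4% and fell in 15.4% of cases. Of 20 members 7 fell, the chains Itga1, Itga5, Itga7, Itga11, Itgav, Itgb3 and Itgb8, and 3 rose, the leukocyte integrin chains Itgam, Itgax and Itgb2. Itga11, a collagen receptor chain of fibroblasts, was at 916 and 940 with miR-15a, 2224 and 2758 in the control, 3514 and 3812 untreated and 4 in both quiescent libraries (-1.41 ± 0.11, adjusted p = 9.19e-05). Itga1, another collagen receptor chain, was at 606 and 678 against 1308 and 1294. Itgb2, the common chain of leukocyte integrins, was at 316 and 348 against 30 and 24 (3.40 ± 0.21).

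Among signalling pathways, Notch genes moved in both directions. Notch3, the receptor of mural cells, was at 158 in both miR-15a libraries, at 413 and 534 in the control and at 596 and 696 untreated (-1.54 ± 0.13, adjusted p = 2.13e-04). Its ligand Jag1 was at 688 and 704 against 1396 and 1386. Notch1, which endothelial cells also carry, was at 418 and 432 against 122 and 154 (1.6 ± 0.13, adjusted p = 1.55e-04). Nrarp, a feedback inhibitor that Notch induces, was at 40 and 41 against 5 and 3. In all 3 of 11 Notch genes rose and 5 fell, the 5 being 3 without miR-15a library b or without control library b.

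Growth factor genes fell in 9 of 17 cases and rose in 2. The 9 were 3 and 5 without miR-15a library a or b and 5 without control library b. Igfbp5, an IGF-binding protein, was at 14 and 18 with miR-15a, 69 and 91 in the control and 114 and 122 untreated (-2.01 ± 0.22, adjusted p = 6.72e-04). Fgfr2, an FGF receptor, was at 65 and 66 against 120 and 140. Pdgfb, a ligand made by endothelial cells, rose (242 and 276 against 90 and 93) and its receptor Pdgfrb fell by 0.44 on the log2 scale.

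Of 19 TGF-beta pathway genes 4 fell and 1 rose, against 15.4% and 14.4% of all genes. Without miR-15a library b none of the 4 decreases passed. The receptor genes Tgfbr1 (-0.11) and Tgfbr2 (-0.04) and the mediator Smad3 (0.17) did not pass, while the co-receptor Tgfbr3 was at 205 and 208 with miR-15a and at 71 and 76 in the control (1.43 ± 0.16, adjusted p = 6.73e-04). Hippo and YAP genes fell in 6 of 19 cases, or 3 without control library b, and rose in 2. Lats1, a Hippo kinase, was at 670 and 626 against 1208 and 1308, and Tead1, a DNA-binding partner of YAP, at 1590 and 1462 against 2500 and 3374.

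Mitotic genes fell in 11 of 22 cases and none rose, with a median of -0.54. Mki67, the proliferation marker, was at 475 and 370 with miR-15a, 824 and 870 in the control and 870 and 881 untreated (-1.0 ± 0.12, adjusted p = 9.29e-04). Plk1, a mitotic kinase, was at 47 and 62 against 138 and 141, and Cenpf, a kinetochore protein, at 159 and 154 against 264 and 322. The kinases Aurka (-0.61) and Cdk1 (-0.42) did not pass. DNA replication genes fell in 4 of 21 cases, near the 15.4% of all genes. Mcm4, a subunit of the replicative helicase, was at 285 and 277 against 418 and 426 but at 302 and 321 in untreated cells, so its miR-15a libraries lay close to untreated ones.

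**Figure D3:**
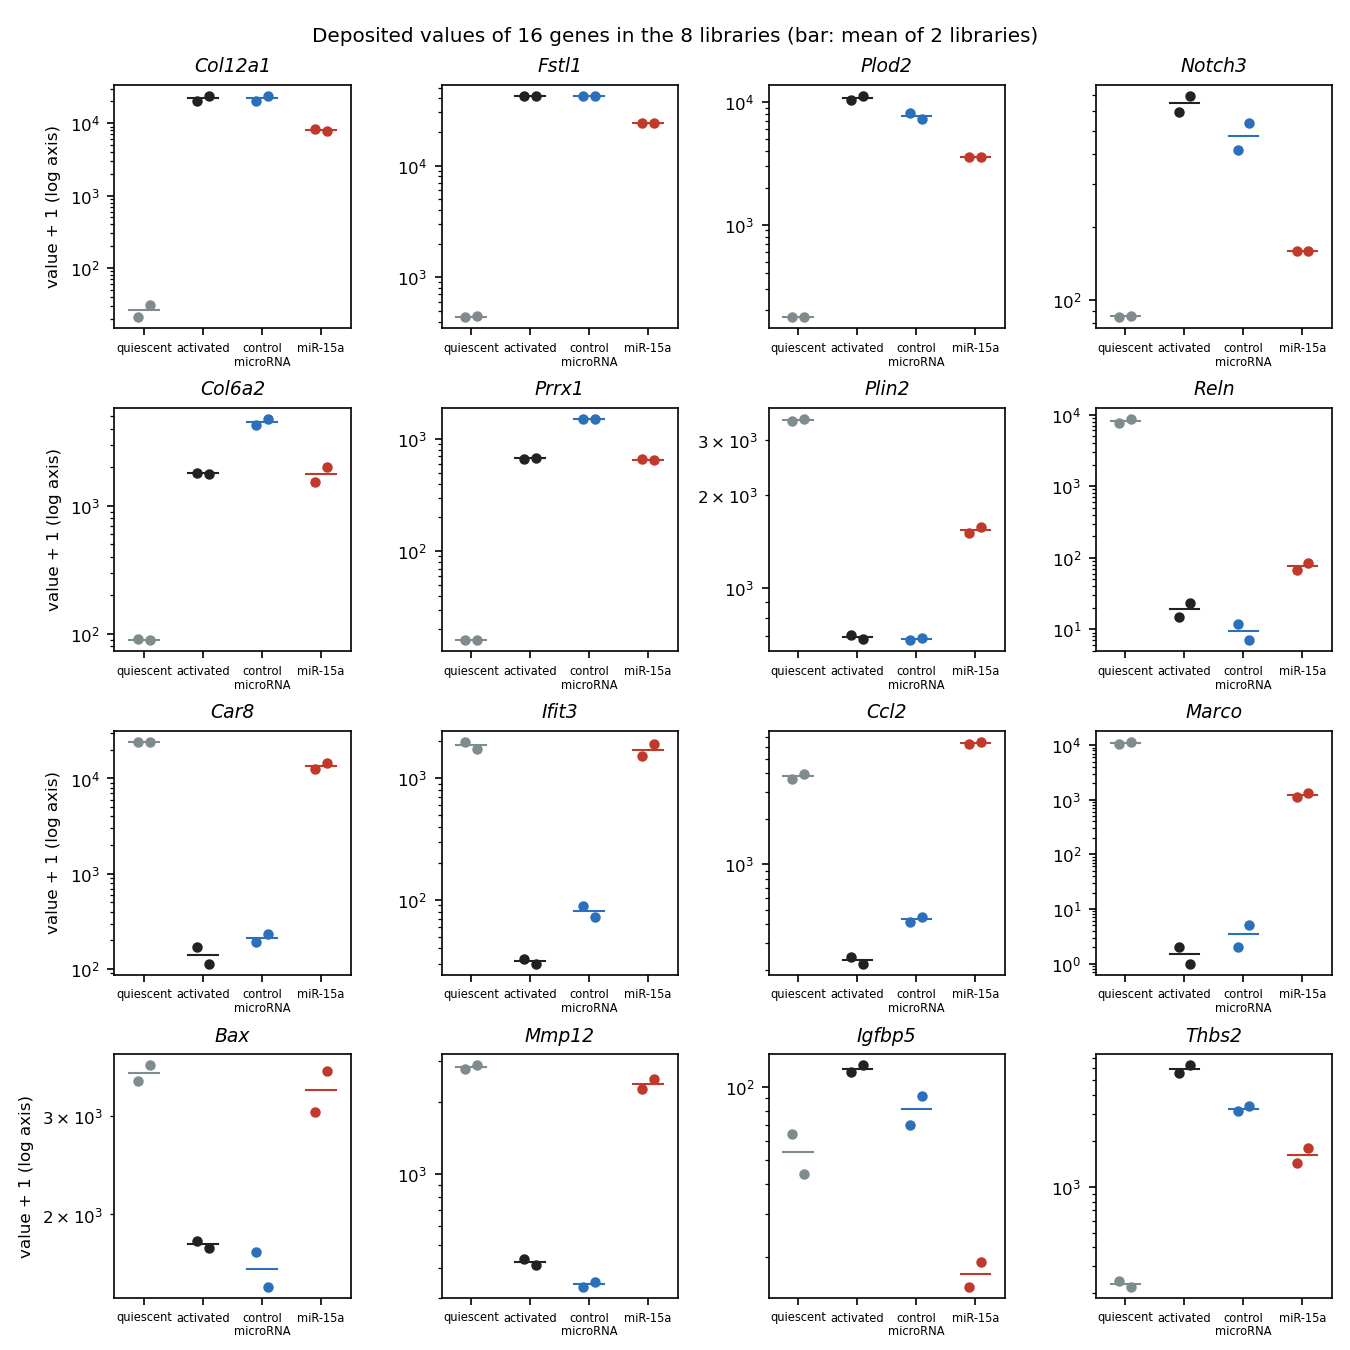
Deposited values in all 8 libraries (log axis, value + 1) for genes described in the text, one panel per gene, with a point per library and a bar at the mean of each group. Col12a1 steps from 20500 and 24099 in the control down to 8202 and 7720 with miR-15a, and Marco from 1 and 4 up to 1124 and 1353. The bar is the arithmetic mean of the plotted pair.

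Known miR-15 family targets gave few decreases that held without each library. Of 18 members 7 fell, but 1 without miR-15a library a, none without miR-15a library b, 1 without control library b and 4 with median-ratio scaling. Bcl2 was at 87 and 98 with miR-15a, 118 and 143 in the control and 92 and 108 untreated. Its decrease (-0.47 ± 0.15, adjusted p = 0.0479) did not pass without miR-15a library a or b or control library b (adjusted p = 0.187, 0.0885 and 0.219), and the miR-15a libraries overlapped the untreated ones. Ccnd1, which encodes cyclin D1, was higher at 3168 and 3204 against 2670 and 2700 (0.25 ± 0.06, adjusted p = 0.0208), and this did not pass without any 1 of the 4 compared libraries (0.0561 to 0.0787). Ccne1, for cyclin E1, was at 141 in both miR-15a libraries and at 163 and 156 in the control and did not pass (adjusted p = 0.327). Pim1, a survival kinase, rose from 138 and 128 to 269 and 278. Dleu2, the host gene of miR-15a, was at 76 and 84 against 72 and 78 and did not pass (adjusted p = 0.639), which says nothing of an added mature microRNA.

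Apoptosis regulators rose in 9 of 20 cases, against 14.4% of all genes, with Bcl2 the 1 decrease. Bax, which permeabilizes mitochondria, was at 3048 and 3604 with miR-15a and at 1716 and 1486 in the control (1.05 ± 0.10, adjusted p = 3.09e-04). Inhibitors of death rose too: Birc3 was at 234 and 211 against 70 and 86, and Mcl1, a relative of Bcl2, at 1648 and 1614 against 1176 and 1086. Quiescent libraries were high in these inhibitors, at 646 and 606 for Birc3 and 6825 and 6290 for Mcl1.

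Genes of the microRNA machinery fell in 8 of 16 cases and none rose, with 2 and 5 left without miR-15a library b or a and 1 with the 4 compared libraries alone. Tnrc6a, a scaffold that links Argonaute to decay enzymes, was at 275 and 312 with miR-15a, 434 and 478 in the control and 338 and 362 untreated (-0.63 ± 0.10, adjusted p = 0.00337). Against untreated cells it did not pass (adjusted p = 0.078). Ago2, the slicing Argonaute, fell by 0.68 on the log2 scale, and Dicer1, which cuts the precursor, by 0.29.

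Markers of quiescent stellate cells did not move as one. Of 15 members 6 rose, Reln, Hgf, Vipr1, Plin2, Ednrb and Gata4, and 5 fell, Ngfr, Nes, Dcn, Cygb and Hand2. Ednrb, an endothelin receptor that endothelial cells share, was at 4368 and 4546 with miR-15a, 4 and 22 in the control, 30 and 24 untreated and 6462 in both quiescent libraries (8.16 ± 0.42, adjusted p = 1.65e-05). It thus stood at 69.0% of its quiescent mean. Plin2, a coat protein of lipid droplets, was at 1508 and 1573 against 676 and 688, or 44.3% of quiescent. Hgf, hepatocyte growth factor, was at 340 and 358 against 138 and 129, or 36.5%. Reln, a secreted glycoprotein of stellate cells, was at 67 and 82 against 11 and 6, but 7724 and 8724 in quiescent cells, or 0.906%. Pparg, a lipid-related transcription factor, was at 184 and 198 against 240 and 204 and did not pass (adjusted p = 0.255). Over the 15 members the median log2 fold change was -0.21, against -0.07 over all genes. Over the 12 members at 100 or more in quiescent cells the median was 40.4% with miR-15a, 16.8% in the control and 18% untreated. Those 12 were chosen by a high quiescent level, which left out Hand2 and Pparg.

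Transcripts of macrophages and endothelial cells rose with miR-15a. All 18 macrophage markers rose, with a median of 2.16 against -0.07 over all genes. Marco, a scavenger receptor of Kupffer cells, was at 1124 and 1353 with miR-15a, 1 and 4 in the control, 1 and 0 untreated and 10504 and 11352 in quiescent libraries (7.40 ± 0.21, adjusted p = 1.53e-06). Cd5l, a secreted protein of macrophages, was at 1977 and 2361 against 21 and 23, and the Kupffer cell lectin Clec4f at 672 and 813 against 10 and 22. The summed level of the macrophage markers was 11555 and 12996 with miR-15a, 2423 and 2172 in the control, 1949 and 1891 untreated and 115315 and 136111 in quiescent libraries. In bulk RNA, fewer cells of a type and less RNA per cell cannot be told apart.

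Of 20 endothelial markers 17 rose and 1 fell, with a median of 3.91. Pecam1, an adhesion molecule of endothelial junctions, was at 2865 and 2570 with miR-15a, 18 and 48 in the control and 18666 and 20500 in quiescent libraries (6.28 ± 0.82, adjusted p = 0.00151). Cldn5, a tight junction protein, was at 842 and 1046 against 5 and 9, and the transcription factor Sox17 at 304 and 288 against 1 and 4. The exception was Flt1, a VEGF receptor, which fell by 0.99 on the log2 scale. Of 14 sinusoidal markers 12 rose, with a median of 3.43, among them Cd36, a fatty acid transporter, at 2670 and 2866 against 194 and 250, and Fcgr2b, an Fc receptor, at 452 and 584 against 22 and 26. Summed levels were 12918 and 13070 against 1908 and 2409 for endothelial markers and 8580 and 9179 against 1209 and 1331 for sinusoidal ones. None of the macrophage, endothelial or sinusoidal markers was at 0 in any of the 4 libraries. These sums moved with the increases in interferon, antigen presentation, chemokine, NF-kB, complement, lysosomal and NRF2 genes. They also moved with the increases of 6 of the 15 quiescent stellate markers, of which 5 fell, and with the decreases in matrix genes. The part of these sums in those results was not tested.

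Levels were also set against the quiescent mean, for genes that reach 100 there. Macrophage markers with miR-15a stood at a median of 11.4% of their quiescent mean, against 2.94% in the control and 3.26% in untreated cells. For endothelial markers the medians were 11%, 0.491% and 0.210%, and for sinusoidal markers 6.59%, 0.362% and 0.256%. Within the endothelial list single genes ran from 2.38% to 47.1%.

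Hepatocyte transcripts rose in 3 of 18 cases, near the 14.4% of all genes. Apoc1 was in the lead at 54 and 71 with miR-15a and 2 and 9 in the control. The list sum was 1873 and 2577 with miR-15a, 358 in control library a and 449 and 660 in untreated libraries. Control library b, at 1734, lay between the untreated and the miR-15a libraries. Without it 12 members rose, and without control library a or either miR-15a library 1 did. Apoa1, Apoc3 and Fgb were at 0 in control library a. The only tested marker of lymphocytes, Cd4, was at 2 or below in all 4 libraries.

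**Figure D4:**
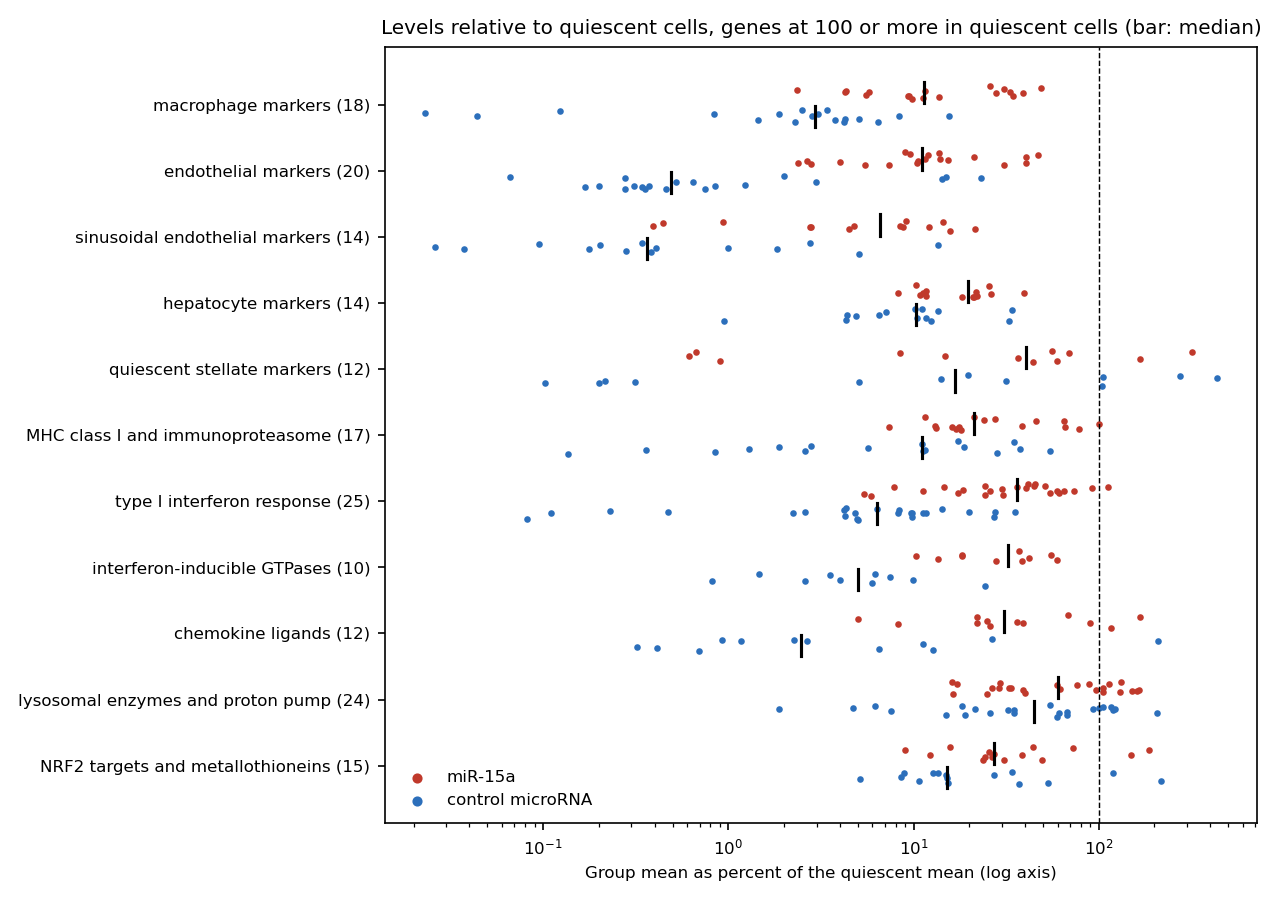
Mean level in each microRNA group as a percent of the mean in quiescent libraries (log axis), one point per gene at 100 or more in quiescent cells and the list median as a bar. In every list plotted the median with miR-15a is above that of the control, as with 6.59% against 0.362% for sinusoidal markers and 60.6% against 44.6% for lysosomal genes. Only a choice of the lists is plotted. Lists not plotted went in both directions, as with 91.6% against 146% for basement membrane genes and 67.1% against 44.9% for apoptosis regulators.

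Interferon-stimulated genes rose almost throughout. Of 27 type I interferon response genes 26 rose and none fell, with a median of 2.53, and 1 fell without miR-15a library a. Rsad2, the antiviral enzyme viperin, was at 2224 and 2360 with miR-15a, 39 and 30 in the control, 26 and 7 untreated and 42350 in both quiescent libraries (5.87 ± 0.37, adjusted p = 4.37e-05). Oasl1, a relative of the 2′-5′ oligoadenylate synthetases, was at 343 and 350 against 7 and 6, and Cmpk2, a mitochondrial nucleotide kinase, at 312 and 318 against 7 and 6. Ifit3, which helps bind viral RNA, was at 1508 and 1896 with miR-15a and 88 and 72 in the control, close to the 1976 and 1744 of quiescent cells. Relative to quiescent libraries the list median was 36.0% with miR-15a, 6.35% in the control and 1.91% untreated.

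Of 11 interferon-inducible GTPases 10 rose, with a median of 2.20. Gbp3, a guanylate-binding protein, was at 594 and 694 with miR-15a and at 70 in both control libraries, and Iigp1 at 966 and 1130 against 132 and 166. MHC class I and immunoproteasome genes rose in 15 of 17 cases, with a median of 1.52. H2-K1, a classical class I heavy chain, was at 3994 and 4546 against 450 and 452, and 24099 in both quiescent libraries (3.23 ± 0.12, adjusted p = 4.42e-06). H2-Q4, a non-classical chain, was at 377 and 496 against 11 and 16; reads of such near-identical genes may have been shared among them in counting. Of the 4 class II genes H2-Aa (85 and 91 against 5 and 1), H2-Ab1 (133 and 106 against 6 and 12) and H2-DMa rose, and H2-DMb1 at 16 and 23 against 21 and 14 did not pass. H2-DMa, at 81 and 70 against 44 and 24, lost its call without miR-15a library a or b or control library b (adjusted p = 0.0880, 0.0580 and 0.0582).

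Chemokine genes rose in 11 of 13 cases with a median of 2.81. Ccl2, which attracts monocytes, was at 6288 and 6462 with miR-15a and at 414 and 444 in the control (3.88 ± 0.07, adjusted p = 1.33e-06). It was at 241 and 218 untreated and at 3682 and 3994 in quiescent cells. Both miR-15a libraries were thus above both quiescent ones. Cxcl1, which attracts neutrophils, was at 796 and 936 against 28 in both control libraries, and Ccl6 at 2002 and 2062 against 36 and 40. The decreases were Cxcl12 (-0.84), a stromal chemokine, and Cx3cl1 (-1.40), whose protein is tethered to the membrane.

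NF-kB and Toll-like receptor genes rose in 14 of 21 cases, none fell, and the median was 0.79. The adhesion molecule Icam1 was at 354 and 330 with miR-15a, 12 and 16 in the control and 9200 and 9821 in quiescent cells (4.20 ± 0.12). Vcam1 was at 1810 and 1896 against 665 and 634, and the endotoxin co-receptor Cd14 at 114 and 92 against 18 and 16. Il6 (-0.02) and Ptgs2 (-0.07), for interleukin 6 and cyclooxygenase 2, did not pass.

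Complement genes rose in 10 of 15 cases and fell in 3. C1qa, a chain of the C1q recognition unit that macrophages make, was at 2133 and 2462 with miR-15a and at 364 and 379 in the control (2.61 ± 0.12, adjusted p = 8.37e-06). Properdin, encoded by Cfp, was at 566 and 704 against 28 and 24. The proteases that act beside C1q, C1ra (-0.63) and C1s1 (-0.82), fell, and C3 did not pass (-0.02).

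Lysosomal genes rose in 17 of 24 cases and 1 fell, with a median of 0.50. Ctsb, a cysteine protease, was at 20500 in both miR-15a libraries and at 8202 and 7286 in the control (1.41 ± 0.07, adjusted p = 1.49e-05). Ctss, a protease of antigen-presenting cells, was at 1322 and 1420 against 166 and 132, and Lgmn, a lysosomal endopeptidase, at 3602 in both miR-15a libraries against 1050 and 1040. NRF2 targets and metallothioneins rose in 12 of 15 cases. Prdx1, a peroxidase, was at 10504 in both miR-15a libraries against 4899 and 5764, and Srxn1, which repairs peroxiredoxins, at 966 and 1024 against 480 and 514. The cystine transporter gene Slc7a11 fell by 0.53 on the log2 scale.

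Oxidative phosphorylation genes rose in 13 of 27 cases, none fell, and the median was 0.29. The 13 were 8 without miR-15a library a or b or control library b, and 1 member fell without miR-15a library b. Cox4i1, a subunit of cytochrome c oxidase, was at 4168 and 4446 with miR-15a and at 2922 and 2670 in the control (0.62 ± 0.07, adjusted p = 8.43e-04), and Sdhd, an anchor of succinate dehydrogenase, at 1743 and 1842 against 1076 and 998. Ribosomal protein genes rose in 10 of 29 cases with a median of 0.20, the 10 being 6 and 4 without miR-15a library a or b and 6 without control library b. Of 20 endoplasmic reticulum stress genes 4 fell and 3 rose, the 3 being 1 without miR-15a library b, without control library b or with the 4 compared libraries alone. Both shares were near those over all genes, of which 15.4% fell and 14.4% rose. Hsp90b1, a chaperone of secreted proteins, was at 12562 in both miR-15a libraries and 24099 in both control libraries (-0.94 ± 0.07, adjusted p = 6.92e-05). The stress factor Atf3 rose from 84 and 68 to 262 and 256.

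For some genes the control microRNA group, and not the miR-15a group, stood apart from untreated cells. Of 10 mesenchymal transcription factors 4 fell, Snai2, Prrx1, Tbx20 and Hand2, and Tcf4 rose. Tbx20 and Tcf4 did not follow that pattern. Tbx20 was at 138 and 131 with miR-15a, 310 and 272 in the control and 234 and 280 untreated. Tcf4 was at 618 and 600 with miR-15a, 322 and 402 in the control and 182 and 195 untreated. Prrx1, which marks limb and connective tissue mesenchyme, was at 663 and 646 with miR-15a, 1506 and 1515 in the control and 662 and 678 untreated. It fell against the control (-1.20 ± 0.07, adjusted p = 2.72e-05) and did not differ detectably from untreated cells (-0.03, adjusted p = 0.73). Col6a2, a chain of the microfibrillar collagen VI, was at 1541 and 2002, 4266 and 4776, and 1811 and 1772 in the same order. Sox9, a matrix-related transcription factor, was at 19 and 16, 54 and 64, and 16 and 19. Hand2, a transcription factor of stellate cells, was at 130 and 105 with miR-15a, 270 and 241 in the control and 70 and 65 untreated, so it was lower than in the control but higher than in untreated cells (0.75, adjusted p = 0.012). Tmprss11f, a membrane serine protease gene chosen after its values were seen, was at 1 in both miR-15a libraries, 68 and 65 in the control and 2 in both untreated libraries. The control microRNA libraries exceeded untreated ones in 944 genes (7.18%) and were below them in 869 (6.61%). The same comparison for miR-15a called 2204 genes (16.8%) up and 2841 (21.6%) down. These comparisons share libraries with the main one.

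Genes with seed sites fell somewhat more often than genes without, and 3′ UTR length moved with this. Of 11872 tested genes with a 3′ UTR, 540 (4.55%) held TGCTGCTA and 23% of these fell, while 2359 (19.9%) held the full match without that A and 21.6% fell. Of the 6539 genes (55.1%) with no site 12.6% fell. The median log2 fold change was -0.12, -0.11 and -0.03 in these classes, against quartiles of all genes at -0.32 and 0.20. Genes with TGCTGCTA had a median 3′ UTR of 2706 bases and those with no site one of 690 bases.

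Within bands of 3′ UTR length the gap was narrower. In the long band, from 1872 bases, 25.3% of genes with TGCTGCTA, 25.4% with the full match without A, 24.4% with bases 2 to 7 alone and 19.7% with none fell. In the middle band the shares were 18.6%, 17.0%, 17.3% and 14.9%, in the same order. In the short band, up to 698 bases, they were 17.1%, 13.0%, 9.58% and 8.75%, where the first class held 41 genes. The class with bases 2 to 7 and the A broke this order, at 22.4%, 17.8% and 4.65% in the long, middle and short bands, the last being 2 of 43 genes. Against untreated cells, 21.1% of all genes with a 3′ UTR were lower, at 25.1%, 21.5% and 16.9% in the long, middle and short bands. Genes with TGCTGCTA were there not more often lower than those without a site in the long and short bands. In the long band 25.1% of genes with TGCTGCTA and 26.1% of those with no site were lower with miR-15a. In the short band the shares were 9.76%, or 4 of 41 genes, and 17.7%. The middle band went the other way, at 22.1% and 21.2%, as did all bands together, at 23.1% and 20.2%. No test was made of these shares, and genes are not replicates.

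Of the 124 genes with TGCTGCTA that fell, 99 (79.8%) also had both miR-15a libraries below both untreated ones. The same held for 82.5% of all 2029 genes that fell and for 43.1% of all genes tested, so the share was not higher in genes with the site. The genes described here were chosen to lie below the untreated libraries. Cast, the inhibitor of calpain proteases, was at 956 in both miR-15a libraries, 1486 and 1472 in the control and 1380 in both untreated libraries (-0.63 ± 0.06, adjusted p = 2.36e-04). Adam12, a metalloprotease of activated fibroblasts, was at 1190 and 1068 against 2106 and 2204, with 2330 and 2420 untreated (-0.93 ± 0.09, adjusted p = 3.27e-04). Pik3r1, the regulatory subunit of PI3 kinase, was at 541 and 528 against 1023 and 870, with 774 and 842 untreated.

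Thbs2, a matricellular thrombospondin, was at 1440 and 1794 with miR-15a, 3168 and 3373 in the control and 5561 and 6288 untreated. Tnik, a kinase of the Wnt pathway, was at 104 and 100 against 201 and 222. Cacna2d1, a calcium channel subunit, was at 485 and 488 against 842 and 778, and Plcxd2, a protein with a phospholipase-like domain, at 912 and 973 against 1647 and 1572. Cbx5, a heterochromatin protein, changed least of these, from 4168 and 3994 to 3047 and 2991 (-0.43 ± 0.05, adjusted p = 9.91e-04). A seed match is a description of the sequence, and miR-15a binding was not measured.

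**Figure D5:**
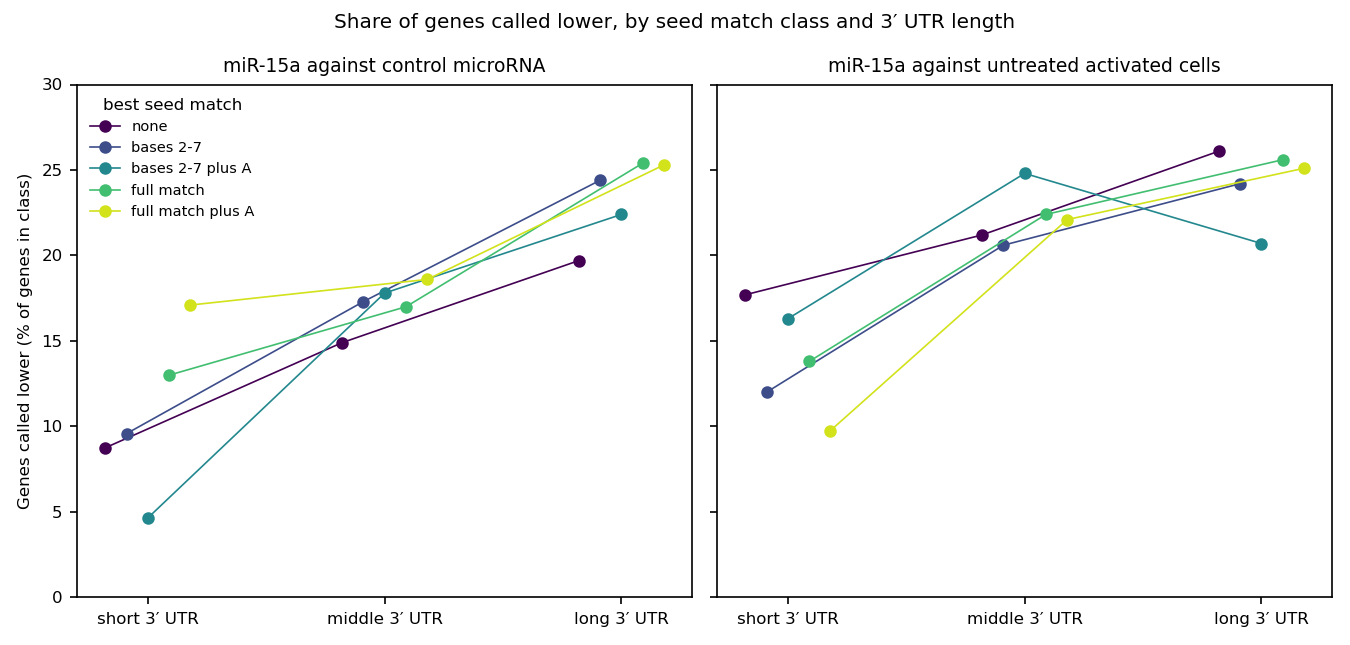
Percent of genes called lower with miR-15a (y axis) by class of the best seed match, in 3 bands of 3′ UTR length (x axis), against the control microRNA (left) and against untreated activated cells (right), with a point per class. In the long band the classes lie between 19.7% without a site and 25.4% with a full match on the left, while on the right genes without a site are at 26.1%.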

How the data were processed

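TruSeq libraries were read single-end (NextSeq), per the labels' protocols. STAR, Subread, featureCounts and the build mm10 are named in the submitters' processing notes, without versions. The authors' deposited table is named as read counts, but all 8 libraries hold the same 910 distinct values with totals of 10193036 to 10234768, so the deposited values were treated as a normalized score, and their depth is unknown. Quantile normalization and rounding would leave such values, but that step is not recorded. Whole-library ties can understate the spread: 30 called genes had tied values within both groups.

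limma 3.58.1 (R 4.3.3) was fitted to log2(value + 5) over all 8 libraries with 4 group means, a variance prior following the mean level and Benjamini-Hochberg adjustment. The test took in 13150 of 14162 genes, those that reached 10 in 2 or more libraries. The procedure was tested on simulated data. Those data had independent noise and neither the shared steps nor the ceiling of the deposited values, so that test does not cover these features. Calls were made at an adjusted p under 0.05.

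Genes named were drawn from the 12 largest increases and the 12 largest decreases with a mean of at least 50 and no overlap, leaving out unnamed gene models. Further sources were the 4 or fewer smallest p-values of each gene list and a fixed set (Acta2, Col1a1, Col1a2, Col3a1, Timp1, Pparg, Bcl2, Ccnd1, Ccne1, Dleu2, Xist, Ddx3y). The last source was the 8 genes with TGCTGCTA and the smallest adjusted p that fell below both untreated libraries, outside chromosome 18. Not all genes of the largest changes and the lists are described. Left out of the largest changes were Mmrn2 and Gimap6, which rose, and Pknox2, Cacna1c, Nfic, Ahdc1, Myrf, Prelp, Tnrc18 and Fat1, which fell. With the 4 compared libraries alone Nfic, Myrf, Prelp and Tnrc18 did not pass (adjusted p = 0.0511 to 0.100). Other list members named were chosen after their values were seen. The members and lists were chosen with earlier results of these data known. Seed sites were sought in the longest 3′ UTR per gene (GENCODE M21, GRCm38). Alternatives covered pseudocounts of 1 and 20, filters, scaling, the variance prior, the libraries in the fit, a replicate block, each library left out and the choice of 3′ UTR. The letters a and b were not used to pair libraries.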

Additional observations from a re-analysis of the deposited data

How the results depend on the processing

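Depth and the sources of the libraries are unknown, 2 libraries a group limit the precision, and genes at the ceiling cannot differ. Fitted to the 4 compared libraries alone, the count of called genes was 2093, with 1175 higher and 918 lower. Leaving out 1 library at a time, the count of called genes ranged from 2375 to 3613, that of higher genes from 1289 to 1773 and that of lower genes from 1064 to 1860. Genes called lower by more than 1 on the log2 scale ranged from 130 (without control library b) to 408 (without control library a), and numbered 98 with a pseudocount of 20. Timp1 ranged from -0.58 to 0.10, positive in the fit that left out miR-15a library a. H2-DMb1 ranged from -0.10 to 0.35, at -0.08 where miR-15a library b was left out and lowest where control library b was. Neither gene passed in any of these fits, and the cause was not tested. The difference in median log2 fold change between genes with TGCTGCTA and genes with no site was -0.09, and -0.0525 with the shortest annotated 3′ UTR. Deviations from the group means of libraries with the same letter correlated at -0.07 to 0.06 between groups across genes. The labels state no pairing by letter, and these correlations cannot decide it. With the letter as a replicate block, 3776 genes were called, 1840 higher and 1936 lower, and 3633 of them were shared with the fit without the block.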

Other observations

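Metabolic genes outside the pathways described above moved little as lists. Over all genes 14.4% rose and 15.4% fell. Of 16 glycolytic genes 4 rose and 3 fell. Pgk1, phosphoglycerate kinase, was at 2700 and 2640 in miR-15a libraries and 1856 and 1762 in control ones (log2 fold change 0.56 ± 0.08, adjusted p = 0.00251), while Hk2, the first enzyme of the pathway in growing cells, was at 463 and 522 against 632 and 676. The 4 increases were 2 without control library b, and the 3 decreases 1 without miR-15a library a. Of 21 cholesterol synthesis genes 3 rose and 5 fell, the 5 being 1 without miR-15a library b. Insig1, which holds back the sterol sensor, was at 652 and 640 against 380 and 375.

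Car8, a carbonic anhydrase relative without enzyme activity, was among the 12 largest increases and is on none of the cell type lists. It was at 12566 and 14432 in miR-15a libraries, 191 and 232 in control ones, 168 and 113 in untreated activated cells and 24105 in both quiescent libraries (5.97 ± 0.18, adjusted p = 1.53e-06).

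Markers of other liver cells than those described above were few. Both measured cholangiocyte markers were lower with miR-15a, Sox9 and the secreted phosphoprotein gene Spp1, at 532 and 465 against 732 and 688, whose call did not hold without miR-15a library b (adjusted p = 0.0517). Of 5 mesothelial and portal fibroblast markers 2 fell and 2 rose. The increases were 1 without either miR-15a library or control library b, where Gpm6a did not pass (adjusted p = 0.118, 0.0645 and 0.117 without miR-15a library a, b and control library b). The decreases were 1 without miR-15a library b or either control library, where Upk1b did not pass (adjusted p = 0.148, 0.0787 and 0.125 without miR-15a library b and control libraries a and b). Upk3b, a mesothelial membrane protein, was at 7 and 4 against 24 and 22, and Cd34, which endothelial cells share, at 82 and 87 against 26 in both control libraries (1.53 ± 0.16, adjusted p = 5.07e-04).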
